A study of Mus musculus with 4 samples.

Results

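Nuclear and snoRNA-host long noncoding RNAs are represented here by 9 gene symbols: *Malat1* and *Neat1*, which stay in the nucleus, the snoRNA hosts *Gas5*, *Snhg1*, *Snhg4*, *Snhg8* and *Snhg12*, and the imprinted *H19* and *Meg3*. They were chosen by name, and their rows were looked up by symbol in the transcript abundances (TPM, scaled to one total per library and corrected for transcript length). Of the 9 symbols, 1 had a row among the 35739 genes of the TPM table, namely *Snhg4* (ENSMUSG00000117694), and TPM of the other 8 were not analysed here. In the GENCODE M21 annotation, that identifier is a protein-coding read-through of *Snhg4* and *Matr3*, so the row is called the *Snhg4*-*Matr3* read-through below. All 9 symbols had rows among the 55335 genes of a second table of aligned reads (CPM, scaled by sequencing depth).

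The RNA came from liver of littermate mice. The WT group had 2 libraries (replicates 2 and 3), and the *Usp21* KO group had 2 libraries (replicates 1 and 3). WT and KO littermates were bred from C57BL/6 mice and mice of a mixed C57BL/6 and 129/Sv background. The KO allele came from 129/Sv ES cells, and the strain of the sequence around *Usp21* in each library is not given. The KO mice carry a constitutive *Usp21* deletion, made by Cre excision of the floxed exons 3 and 4. The knockout is therefore not limited to hepatocytes, no treatment was given by the labels, and the mice were 10 to 11 weeks old on a normal diet. *Usp21* TPM was 4.07 and 6.29 (WT) against 1.64 and 2.93 (KO), a difference of -0.92 on the log2(TPM + 1) scale (SE 0.33; limma adjusted p = 0.464). All 7 hepatocyte markers were above 0, and their summed TPM was 50977 to 72094. The summed TPM of 5 cholangiocyte markers was 14.6 and 15.9 in the WT libraries and 37.9 and 24.5 in the KO libraries. Most of that sum was *Spp1*, with 13.2 and 12.7 TPM in WT against 33.4 and 20.7 TPM in KO liver. The other markers were low, and *Sox9*, the highest of them, had 0.64 to 2.41 TPM. The summed TPM of 8 Kupffer cell markers was 145 and 166 in WT against 78.3 and 203 in KO liver. The part of these cells in the results was not tested. In whole liver, fewer cells of a type and less RNA per cell cannot be told apart.

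Long noncoding RNAs of this group act in different ways. *Malat1* is concentrated at nuclear speckles, where splicing factors gather, and *Neat1* is the scaffold on which paraspeckles are built. The snoRNA hosts are spliced transcripts whose introns release small nucleolar RNAs (snoRNAs), which guide the chemical modification of ribosomal RNA. Their spliced exons carry little coding sequence, and nonsense-mediated decay removes many of them. *H19* and *Meg3* are expressed from the maternal chromosome, and *H19* is abundant in fetal liver and silenced after birth.

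In GRCm38, *Malat1* occupies chromosome 19 from 5795690 to 5802672 (reverse strand), and its longest transcript is a single exon of 6983 bases. *Neat1* is found on that strand too, from 5824708 to 5845478, with a single exon of 20771 bases. *Gas5* is on chromosome 1 (161034422 to 161038539, forward strand), 10.2 Mb from *Usp21*. *Snhg1* is on chromosome 19 (8723475 to 8726443, forward), *Snhg8* on chromosome 3 (123507552 to 123508404, reverse) and *Snhg12* on chromosome 4 (132308623 to 132311024, forward). *H19* is on chromosome 7 (142575529 to 142578143, reverse) and *Meg3* on chromosome 12 (109541001 to 109571726, forward).

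A pair of stretches is shown because the reads at the *Malat1* locus were assigned to the other strand. Both are the same 30 base pairs, chr19:5802152-5802181 in GRCm38, read 5′ to 3′ from the 2 annotated transcripts that cross there. The first is *Malat1* on the reverse strand (bases 492 to 521 of its 6983-base transcript). The second is Gm37376, a single-exon model on the forward strand (bases 212 to 241 of 453), whose whole length lies inside *Malat1*.
Malat1: cttcgactggcgcatgtacgtttgaaggca
Gm37376: tgccttcaaacgtacatgcgccagtcgaag
The Gm37376 model covers 6.49% of the *Malat1* span. Its orientation is thus the only feature that separates its reads from those of *Malat1*.

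The *Snhg4*-*Matr3* read-through was listed at 0 TPM in WT replicates 2 and 3, whereas KO replicates 1 and 3 reached 2.61 and 2.96 TPM. The KO values were above the WT values with no overlap. The difference was 1.92 on the log2(TPM + 1) scale (SE 0.26, n = 2 per genotype), and it did not pass limma's test over the 9581 genes that averaged 1 TPM or more (unadjusted p = 0.000454, adjusted p = 0.185). An exact permutation test on 2 against 2 libraries cannot go below p = 0.333. No fold is given, since the WT libraries are listed at 0. The row averaged 1 TPM or more only through its KO values, and its WT spread of 0 is a floor. Its SE, p-values and rank by p are therefore not evidence of a difference. Among all tested genes, 11 (0.115%) were listed at 0 in both WT libraries and above 0 in both KO libraries, and 10 (0.104%) showed the reverse. Of those 11, which include the read-through, 5 were pseudogenes and 6 were protein coding. Genes at 0 in 1 genotype passed the filter only through the other. The groups did not overlap, with KO higher, in 34.4% of all tested genes, and with KO lower in 10.9%.

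The lncRNA *Snhg4* (ENSMUSG00000117869) spans 35553371 to 35558316 on the forward strand of chromosome 18 in GRCm38. The read-through begins within it and runs from 35553404 to 35587708 into *Matr3*, whose gene spans 35562138 to 35593835. The 8 annotated transcripts of the read-through share most of their sequence with its neighbours. Of their distinct 31-base words, 74.8% also occur in *Matr3* transcripts, 9.48% in transcripts of the lncRNA *Snhg4*, and 15.8% in neither. For the longest transcript (1515 bases), 86.5% of the words occur in *Matr3*. Reads from the shared stretches are split between both genes by salmon's estimate, so the value of the row is uncertain and is not a measurement of the lncRNA *Snhg4*.

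*Matr3*, which encodes the nuclear matrix RNA-binding protein matrin 3, was measured at 11.4 and 14.9 TPM in WT against 25.02 and 20.0 TPM in KO liver. Its KO libraries were both above the WT libraries (13.1 ± 2.42 against 22.5 ± 3.53 TPM, mean ± SD, n = 2). The difference was 0.74 on the log2(TPM + 1) scale (SE 0.23), and it did not pass the test (limma adjusted p = 0.464). When the TPM of both rows were added, the locus stood at 11.4 and 14.9 TPM in WT against 27.6 and 23.0 TPM in KO liver, a log2 difference of 0.90 (SE 0.22; limma adjusted p = 0.458). The read-through held 9.44% and 12.9% of that sum in KO replicates 1 and 3. *Paip2*, a neighbouring gene that encodes a regulator of the poly(A)-binding protein, had 37.9 and 53.6 TPM in WT against 78.4 and 58.6 TPM in KO liver (log2 difference 0.58, SE 0.25; limma adjusted p = 0.479). *Sil1*, a nearby gene for a nucleotide exchange factor of the endoplasmic reticulum, had 40.5 and 36.0 TPM against 32.7 and 25.2 TPM (log2 difference -0.40, SE 0.20; limma adjusted p = 0.516). Neither neighbour passed the test, and their differences had opposite signs. *Paip2* and *Sil1* were chosen as neighbours after the data were seen.

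**Figure D1:**
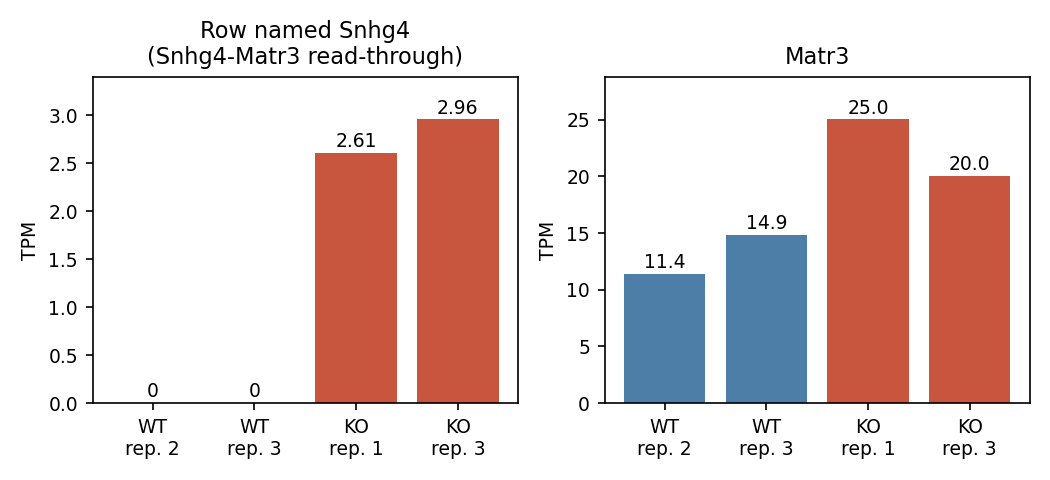
TPM (vertical axes) of the *Snhg4*-*Matr3* read-through (left) and of *Matr3* (right) in the 4 liver libraries; each bar is 1 library, blue for WT and red for *Usp21* KO. The read-through is listed at 0 in both WT libraries and reaches 2.61 and 2.96 TPM in the KO libraries, against 20.0 to 25.02 TPM for *Matr3*.

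The protein-coding or lncRNA gene with the profile closest to the read-through was *Dennd2b*, with 3.82 and 3.78 TPM in WT against 14.3 and 14.9 TPM in KO liver. The Euclidean distance between both mean-centred log2(TPM + 1) profiles was 0.224 over 4 libraries. The read-through ranked 23rd by p-value of all tested genes, a rank that rests on WT values at the floor. In the same fit, 8 genes (0.0835%) passed an adjusted p of 0.05, 810 (8.45%) had an unadjusted p under 0.05 with KO higher, and 195 (2.04%) with KO lower. Of the listed symbols, 1 was tested, and 0 passed at the adjusted level.

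Only 36 rows of the TPM table matched an M21 gene of a long noncoding class, compared with 21529 protein-coding rows, and 3 of these 36 had a mean of at least 1 TPM. *Cct6a*, a chaperonin subunit gene that M21 places in this class, had a log2 difference of -0.02 with overlapping groups. It is also counted below among the protein-coding snoRNA hosts. The M21 class therefore does not always match the gene that a symbol names. *Tmem250* had 31.2 and 32.2 TPM in WT against 30.7 and 27.8 TPM in KO liver, and *Thoc2l* had 0.27 and 0.90 against 2.60 and 1.39 TPM. None passed the test (limma adjusted p = 0.472 to 0.970). Long noncoding RNAs were therefore not compared as a class in TPM.

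Reads of the 9 symbols were next sought in the CPM table, where every value was a whole multiple of what 1 read is worth in its library. The recovered totals were 148164 and 110427 reads in WT replicates 2 and 3, and 145306 and 102898 reads in KO replicates 1 and 3. *Malat1*, *Neat1*, *Gas5*, *Snhg1*, *Snhg8*, *Snhg12*, *H19*, *Meg3* and both *Snhg4* rows were at 0 reads in all 4 libraries. Only 5146 of the 55335 genes with CPM had a read in any library, so most genes were at 0 like the members. A count of 0 allows up to 3 reads, which is 23.0 and 27.5 CPM in the WT libraries and 20.0 and 27.7 CPM in the KO libraries, for counting error alone. The same table held 0 reads in all 4 libraries for 419 (62.4%) of the 671 genes at or above 100 TPM in all libraries. A count of 0 in this table therefore does not show that the transcript was absent.

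The snoRNAs within the hosts were likewise at 0. The annotation places 9 snoRNA loci in *Gas5*, 8 in *Snhg1*, 4 in *Snhg12*, 1 in *Snhg8* and 2 in *Snhg4*. None of their gene models had a read in any library. The share at 0 among all 1507 snoRNA genes with CPM was not computed. Of 17 other lncRNA hosts, 1 had a row in the TPM table, with a mean under 1 TPM, and TPM of the other 16 were not analysed here. Rows with CPM were found for 16 of the 17, and 15 of these were at 0, as were most genes with CPM. The exception was *Snhg14*, the long host that runs antisense to *Ube3a*, with 45 and 27 reads in WT and 46 and 35 reads in KO liver (edgeR log2 fold change 0.08, adjusted p = 0.978). *Ube3a*, a ubiquitin ligase gene, had 0 or 1 read per library in that table, but 18.3 and 30.6 TPM in WT against 41.0 and 23.4 TPM in KO liver by salmon. The strand setting of the counting is not given in the sources used here. Without strand, reads from a gene and its antisense partner cannot be told apart.

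Reads were found on the strand opposite to *Malat1*. Gm37376 had 111 and 285 reads in WT replicates 2 and 3, and 770 and 159 reads in KO replicates 1 and 3, or 852, 2615, 5143 and 1466 CPM in the same order. KO replicate 1 was highest, WT replicate 2 was lowest, and the groups overlapped. The log2 fold change was 0.91 (edgeR quasi-likelihood adjusted p = 0.790), where 1 gene of 1577 (0.0634%) passed. Its value rested on single libraries: it was -0.26 without KO replicate 1 (adjusted p = 0.987) and 0.29 without WT replicate 2 (adjusted p = 0.971), but 1.99 without WT replicate 3 (adjusted p = 0.00201) and 1.54 without KO replicate 3 (adjusted p = 0.00637). Over all alternatives, edgeR without a filter, DESeq2 and limma on the CPM included, its adjusted p ran from 0.00201 to 0.999. These reads cannot be assigned to *Malat1* or to its antisense model, since both cover the same base pairs and the strand setting of the counting is not given.

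The other members had less evidence of this kind. At the *Snhg4*-*Matr3* read-through and *Matr3*, the antisense gene Gm50163 had 26 and 16 reads in WT and 40 and 33 reads in KO liver. The groups did not overlap (edgeR log2 fold change 0.70, adjusted p = 0.730), but the share of such genes among those tested on reads was not computed. Gm50163 lies outside the span of the lncRNA *Snhg4*. Of the 363 exonic bases of Gm50163, 310 lie opposite exons of *Matr3*, and 310 lie opposite exons of the read-through. *Zbtb37*, a zinc-finger gene on the strand opposite to *Gas5*, had 97 and 117 reads in WT and 217 and 86 reads in KO liver, and the groups overlapped (edgeR log2 fold change 0.30, adjusted p = 0.901). Both genes overlap by 428 bases, but their exons share 0 bases. In contrast, 2942 exonic bases of *Zbtb37* lie opposite *Serpinc1*, the antithrombin gene of liver, which had 2178 and 2027 TPM in WT against 2548 and 2168 TPM in KO liver but 0, 3, 5 and 0 reads. The *Zbtb37* reads are therefore no measure of *Gas5*. Opposite *H19*, the 2 small RNA models Gm27483 and Gm27786 had 1 read each, in KO replicate 1. Opposite *Meg3*, Gm26906 was not analysed here, and M21 places no gene opposite *Neat1*, *Snhg1*, *Snhg8*, *Snhg12* or the lncRNA *Snhg4*.

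**Figure D2:**
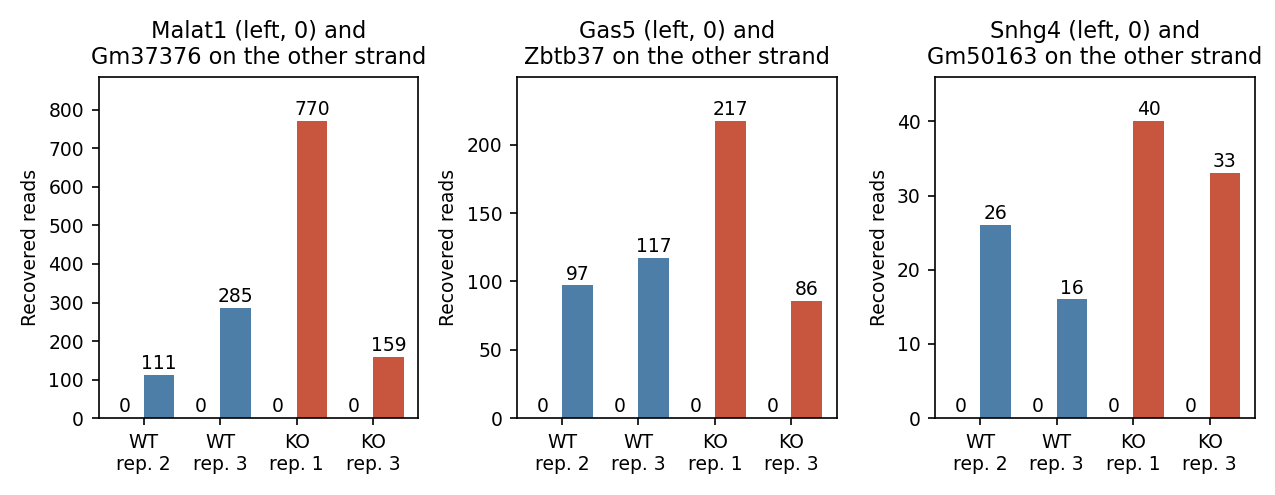
Reads recovered from the CPM table (vertical axes) in each liver library for *Malat1*, *Gas5* and the *Snhg4*-*Matr3* read-through (titled Snhg4). The left position is the titled gene (all 0), and the right bars are the gene annotated on the other strand (blue for WT and red for *Usp21* KO). Gm37376 ranges from 111 to 770 reads with overlapping groups; the exons of *Zbtb37* share 0 bases with those of *Gas5*.

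The libraries differed with transcript length, which matters for a group as uneven in length as this one. Across 9547 genes, the log2 difference between KO and WT had a Spearman correlation of 0.25 with the length of the longest transcript, and genes are not independent replicates. With the median length of each gene's annotated transcripts, it was 0.110. Against the mean of the 4 libraries, the correlation was -0.165 and -0.186 in the WT libraries and 0.160 in both KO libraries. The median log2 difference was 0.05 in the first of 10 groups of equal gene number (129 to 1243 bases) and 0.37 in the last (6363 to 40378 bases), compared with 0.15 over all tested genes. That trend moves with the genotype in all 4 libraries, so length and genotype cannot be told apart here.

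*Neat1* (20771 bases), *Meg3* (14548 bases) and *Malat1* (6983 bases) have lengths of the last group. *Snhg1* (2728 bases) has the length of the fifth, where the median was 0.13, and *Gas5* (2556 bases) and *H19* (2286 bases) that of the fourth, where it was 0.06. *Snhg12* (1538 bases) and *Snhg8* (776 bases) have lengths of the second and the first, with medians of 0.04 and 0.05. The read-through, at 1515 bases, also belongs to the second, and its difference of 1.92 became 1.87 after a smooth length trend was removed from each library. For *Matr3* (6262 bases, in the ninth with a median of 0.30), the difference went from 0.74 to 0.44. No TPM of the other members was tested against these medians.

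**Figure D3:**
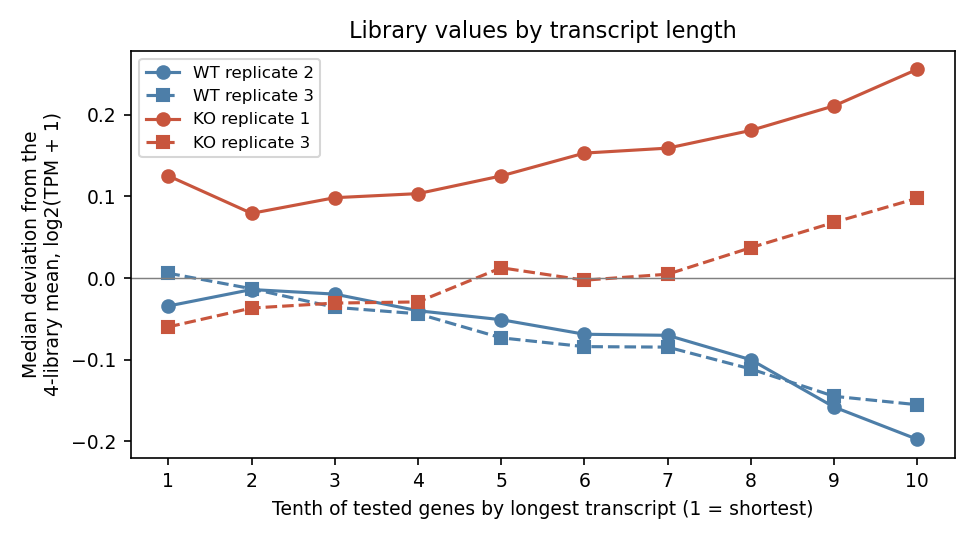
Median deviation of each library from the 4-library mean, in log2(TPM + 1), for tested genes in 10 groups of rising transcript length (1 = shortest); blue lines are the WT libraries and red lines the *Usp21* KO libraries. The WT lines fall and the KO lines climb towards long transcripts, where the median KO minus WT difference is 0.37.

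The proteins of the pathways in which the members work were examined as 7 lists. Across all tested genes the median log2 difference was 0.15, so most genes were higher in KO liver whatever their list. The groups did not overlap in 34.4% of them with KO higher and in 10.9% with KO lower. The exact share with a higher KO mean was not counted. In each list the count at an adjusted p of 0.05 was 0 by limma. Counts at an unadjusted p under 0.05 are given below, to be read beside 8.45% of all tested genes with KO higher. The length adjustment moved the median of all tested genes from 0.15 to -0.005. A similar fall in a list's median is therefore not particular to that list.

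Nuclear speckles are the site of *Malat1*. Of 21 speckle protein genes tested, 19 had higher and 2 had lower mean values in KO liver, with 3 at an unadjusted p under 0.05, all higher. The median log2 difference was 0.59, and 0.37 after adjustment for length. It was 0.23 without KO replicate 1 and 0.95 without KO replicate 3. *Srsf1*, a splicing activator, had 13.3 and 16.7 TPM in WT against 29.7 and 27.2 TPM in KO liver (log2 difference 0.89, SE 0.20; limma adjusted p = 0.449). *Luc7l2*, a U1 snRNP-associated factor, had 5.41 and 8.29 against 19.7 and 10.6 TPM. *Clk1*, a kinase of SR proteins, had 10.8 and 5.49 against 33.1 and 12.9 TPM. The groups did not overlap in any of the 3 genes, and for *Luc7l2* and *Clk1* KO replicate 1 was the highest. Without it, their log2 differences went from 1.00 to 0.58 and from 1.32 to 0.67.

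Paraspeckle proteins bind *Neat1*. Of 16 genes tested, 13 were higher and 3 lower in KO liver, with 7 higher and 1 lower at an unadjusted p under 0.05, and the median log2 difference was 0.41, or 0.32 adjusted for length. Leaving out WT replicate 2 gave a median of 0.21, leaving out KO replicate 1 gave 0.27, and leaving out KO replicate 3 gave 0.66. *Sfpq*, which is required for paraspeckles, had 8.01 and 16.3 TPM in WT against 41.2 and 23.6 TPM in KO liver (log2 difference 1.37, SE 0.40; limma adjusted p = 0.464). *Tardbp*, the gene of the RNA-binding protein TDP-43, had 23.1 and 34.8 against 64.0 and 52.1 TPM (log2 difference 1.00, SE 0.25; limma adjusted p = 0.462). *Hnrnph3*, a splicing factor gene, had 4.40 and 3.82 against 11.2 and 6.77 TPM, and *Matr3* is described above. The difference of *Sfpq* was 0.90 without WT replicate 2, and that of *Hnrnph3* went from 0.93 to 0.61 without KO replicate 1. *Rbm3*, which encodes a cold-inducible RNA-binding protein, was the 1 gene lower (log2 difference -0.89; limma unadjusted p = 0.0396), and it was named after its value was seen.

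Nonsense-mediated decay acts on the spliced snoRNA hosts. Of 15 of its factors tested, 11 were higher and 4 lower in KO liver, with 5 at an unadjusted p under 0.05, all higher, and a median log2 difference of 0.48 (0.28 adjusted for length and 0.26 with a pseudocount of 5). *Upf2*, an adaptor of the decay helicase UPF1, had 0.90 and 2.38 TPM in WT against 5.48 and 3.48 TPM in KO liver. *Upf3b*, which joins UPF2 to the exon junction complex, had 2.75 and 3.40 against 7.83 and 4.55 TPM. *Rbm8a*, an exon junction subunit gene, had 24.0 and 40.6 against 51.0 and 52.2 TPM. These 3 genes had log2 differences of 0.70 to 1.09 and adjusted p-values of 0.464 to 0.472 by limma. Single libraries moved each of them: without WT replicate 2 *Upf2* went to 0.67 and *Rbm8a* to 0.34, without WT replicate 3 *Rbm8a* went to 1.07, and without KO replicate 1 *Upf3b* went to 0.45.

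Protein-coding genes also carry snoRNAs in their introns, and 38 of them were tested beside the lncRNA hosts. In KO liver 30 were higher and 8 lower, with 7 at an unadjusted p under 0.05, all higher. The median log2 difference was 0.18, close to the 0.15 of all tested genes, and 0.11 adjusted for length. It was 0.05 under upper quartile scaling, 0.08 without KO replicate 1 and 0.31 without KO replicate 3. *Nop58*, a host gene that itself encodes a core protein of box C/D snoRNPs, had 12.6 and 12.9 TPM in WT against 34.6 and 26.7 TPM in KO liver (log2 difference 1.19, SE 0.21; limma adjusted p = 0.302). *Hspa8*, the constitutive HSP70 gene, had 382 and 718 against 1299 and 1569 TPM, with a log2 difference of 1.45. *Wdr43*, a ribosome biogenesis factor, had 5.08 and 6.04 against 13.3 and 10.8 TPM, and the ribosomal protein gene *Rpl5* had 7.61 and 6.18 against 13.0 and 13.7 TPM. *Rps12*, named after its values were seen, had the widest difference of the list (2.50) through 1 library, with 4.92 and 6.84 TPM in WT, 12.8 TPM in KO replicate 1 and 106 TPM in KO replicate 3.

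The snoRNP and ribosome biogenesis proteins gave no common direction. Of 27 tested, 16 were higher and 11 lower, with 2 higher and 1 lower at an unadjusted p under 0.05. Their median log2 difference of 0.10 became -0.05 when adjusted for length, and ran from 0.0032 without WT replicate 3 to 0.34 without KO replicate 3. *Nop58*, described above, had the widest log2 difference of this list. *Gar1*, a core protein gene of box H/ACA snoRNPs, was lower, with 14.5 and 14.8 TPM in WT against 10.5 and 4.50 TPM in KO liver (log2 difference -0.97, SE 0.37; limma adjusted p = 0.469). That difference was -0.44 without KO replicate 3 and -1.51 without KO replicate 1.

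Imprinted genes were compared because of *H19* and *Meg3*. Of 11 tested, 7 were higher and 4 lower, with 0 at an unadjusted p under 0.05, and the median of 0.28 became 0.05 when adjusted for length. Leaving out KO replicate 1 gave 0.12, and leaving out WT replicate 3 gave 0.15. The values ran from *Snrpn*, a spliceosomal protein gene (6.51 and 5.51 TPM in WT, 2.91 and 5.36 TPM in KO), to *Dcn*, the gene of the matrix protein decorin (42.6 and 34.1 against 62.8 and 48.4 TPM). Without KO replicate 1, the log2 difference of *Snrpn* went from -0.49 to -0.14 and that of *Dcn* from 0.52 to 0.34, and without KO replicate 3 *Snrpn* went to -0.84. *Dcn* is also a stellate cell marker. The other 7 stellate markers summed to 28.1 and 21.7 TPM in WT against 40.3 and 30.2 TPM in KO liver. Of these 7, the groups did not overlap in *Reln* (7.02 and 4.52 against 10.3 and 7.74 TPM) and overlapped in the others. The part of stellate cells in the *Dcn* values was not tested. Of the 16 listed liver genes silenced after birth with *H19*, and their regulators, 4 reached a mean of 1 TPM. These were the regulators *Trim28*, *Ctcf*, *Zbtb20* and *Zhx2*, and none of the silenced genes themselves was tested. All 4 regulators had higher mean values in KO liver, with 0 at an unadjusted p under 0.05, and their median of 0.32 became 0.04 when adjusted for length. *Ctcf* and *Zhx2* were named after their values were seen. *Zbtb20*, a repressor of fetal liver genes, had 2.79 and 6.56 TPM in WT against 11.3 and 5.13 TPM in KO liver. The corepressor gene *Trim28* had 25.2 and 21.4 against 28.2 and 23.2 TPM, a log2 difference of 0.13 that became -0.02 when adjusted for length. In both genes the groups overlapped.

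**Figure D4:**
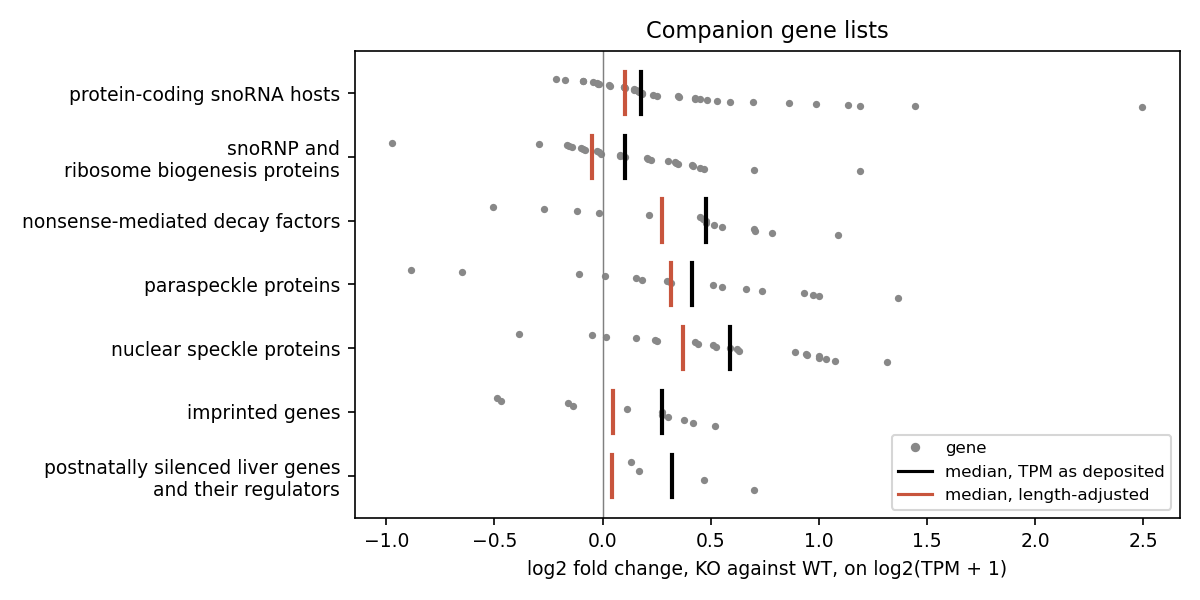
KO minus WT difference on the log2(TPM + 1) scale (horizontal axis) for each tested gene (grey points) of 7 protein lists; black bars are medians from the TPM as deposited and red bars medians adjusted for transcript length. Every red bar lies to the left of its black bar, and the adjustment also moved the median of all tested genes, from 0.15 to -0.005. The speckle list has the rightmost black bar at 0.59.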

How the data were processed

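RNA-seq of mouse liver was deposited for 2 WT and 2 *Usp21* KO libraries (Illumina MiSeq). The number of mice per library is not given in the sources used here. The authors made TPM per gene with salmon (mm10), and counted aligned reads per gene with HTSeq; the deposited CPM are these counts scaled by TMM, a signal of whole reads, since 100% of values were whole multiples (tolerance 0.02) of 1 read. Strand settings and versions are not given in the sources used here. 2 log-scale copies of both tables were not used. TPM keep no depth; intervals from 0 reads cover counting error only.

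log2(TPM + 1) of genes averaging 1 TPM or more was tested with limma 3.58.1 (trend, R 4.3.3), two-sided, with Benjamini-Hochberg adjustment over 9581 genes. Recovered reads of genes with at least 10 reads in all were tested with edgeR 4.0.16 (quasi-likelihood) or DESeq2 1.42.0. The scripts were tested on simulated data. P-values reflect the spread between these samples together with variances borrowed from other genes (limma: 3.62 prior degrees of freedom). Transcript lengths, positions and sequences came from GENCODE M21. The members and lists were chosen with earlier results of these data known. Named genes were all members, *Usp21*, the closest profile, and per list up to 4 genes with an unadjusted p under 0.05 and a change of at least 1.5-fold, otherwise the highest and lowest; 1 gene that the rule names is not reported here. Alternatives were other pseudocounts (0.1, 5), filters, scalings, a length adjustment, unmoderated variances and leaving out each library.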

Additional observations from a re-analysis of the deposited data

How the results depend on the processing

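No paired analysis was made, because the labels give no pairing of WT with KO mice. The difference of the *Snhg4*-*Matr3* read-through kept its direction and missed the threshold in all 10 alternatives, with adjusted p-values of 0.191 to 0.675. Its value was 4.85 when 0.1 was added before the logarithm, and 0.64 when 5 was added. A mean of at least 5 TPM removed it, and the CPM table, edgeR and DESeq2 gave no value for any member, since all were at 0 reads. No median over tested members was computed, with 1 tested.

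The length trend (0.25) was 0.110 with the median transcript length, 0.235 at a mean of at least 5 TPM, 0.263 with a pseudocount of 0.1, and 0.210 to 0.235 when libraries were left out. *Trim28* turned from 0.13 to -0.0164 when adjusted for length, and ran from -0.001208 (without KO replicate 1) to 0.27 (without KO replicate 3). In alternatives chosen after seeing the data, genes called on recovered reads went from 1 to 12 without a filter and to 3 to 14 when libraries were left out. With libraries left out, Gm37376 ran from -0.26 (without KO replicate 1) to 1.99 (without WT replicate 3), and *Zbtb37* from -0.20 (without KO replicate 1) to 0.66 (without KO replicate 3). The cause was not tested. Upper quartile scaling moved the median of all tested genes from 0.15 to 0.04, and the length adjustment moved it to -0.005. At 102898 to 148164 recovered reads per library, 0 reads allow a level of up to 20.0 to 27.7 CPM.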
